A study of Homo sapiens with 5 samples.

Results

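BRG1-alone peaks between genes were the peaks of the anti-BRG1 CUT&Tag library of SNU638 cells that lay away from genes and had no counterpart in the other antibody lists. They were selected on 2 kinds of measure, the position of the summit and the absence of other peaks. The summit had to lie outside every protein-coding gene of GENCODE release 44 and farther than 1 kb from every protein-coding or lncRNA transcript start, and the peak had to share no base with a peak of ACTL6A, NRF2 or the second IgG library (IgG 2). The rule kept 11530 of 48793 BRG1 peaks, and they are called the intergenic BRG1-alone peaks here. They made up 80.5% (Wilson 95% interval 79.8% to 81.1%) of the 14322 BRG1 peaks between genes. SNU638 is an established human gastric cancer cell line, and no treatment or genetic change was compared. The study made 5 libraries from it, 1 each with anti-BRG1, anti-ACTL6A and anti-NRF2 antibody and 2 with IgG, the control antibody that has no set target. Because each antibody had 1 library, no replicate error was available, and every interval covers counting error only and treats peaks as independent. The peak lists hold no read totals, and those that the study states were not used here.

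BRG1, encoded by SMARCA4, is an ATPase of the SWI/SNF chromatin remodelling complexes, which slide or eject nucleosomes and so open DNA to transcription factors. ACTL6A, also called BAF53A, is an actin-related subunit of the same complexes, and NRF2 is the transcription factor of the antioxidant response. Away from promoters, SWI/SNF complexes are known to occupy enhancers, where the AP-1 factors of the FOS, JUN and ATF families and lineage factors bind. In CUT&Tag, a transposase tethered to the antibody inserts adapters into nearby DNA, so open or very abundant DNA can also be tagged without the antibody's target.

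The sequences below are the 200 bases around the summits of members that the results turn on. All are from the plus strand of GRCh38. The first 3 are the members with the most fragments, in 45S ribosomal DNA, and the highest whose window holds a whole tRNA gene, with that gene in capitals. In the 45S windows no mature rRNA gene is annotated, so they have no capitals. The next members by fragments lie in the same rDNA, so only 2 are shown.
45S rDNA, chr21:8213022-8213221: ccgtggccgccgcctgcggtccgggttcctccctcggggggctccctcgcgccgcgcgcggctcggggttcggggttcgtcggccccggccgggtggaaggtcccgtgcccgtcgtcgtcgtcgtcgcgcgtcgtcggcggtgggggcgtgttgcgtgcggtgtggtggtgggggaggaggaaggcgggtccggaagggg
45S rDNA, chr21:8208732-8208931: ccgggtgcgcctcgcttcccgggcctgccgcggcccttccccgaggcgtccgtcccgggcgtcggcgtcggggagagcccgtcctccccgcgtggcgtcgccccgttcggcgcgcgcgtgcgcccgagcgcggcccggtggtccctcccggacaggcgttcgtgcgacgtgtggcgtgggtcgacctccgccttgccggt
TRG-TCC2-4, a glycine tRNA gene, chr1:161462333-161462532: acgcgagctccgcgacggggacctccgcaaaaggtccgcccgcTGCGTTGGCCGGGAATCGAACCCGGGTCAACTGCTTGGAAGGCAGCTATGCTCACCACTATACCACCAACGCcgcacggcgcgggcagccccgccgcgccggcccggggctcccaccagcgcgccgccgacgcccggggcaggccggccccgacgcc

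The next 4 are the members with an AP-1 motif that had the highest -log10 q, and the capitals mark each match to TGANTCA.
Far from OSR1, chr2:19538448-19538647: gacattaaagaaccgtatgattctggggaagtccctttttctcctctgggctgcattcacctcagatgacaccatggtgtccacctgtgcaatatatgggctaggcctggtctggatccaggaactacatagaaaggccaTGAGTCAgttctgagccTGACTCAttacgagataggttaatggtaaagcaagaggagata
Far from SPATA31A3, chr9:67334809-67335008: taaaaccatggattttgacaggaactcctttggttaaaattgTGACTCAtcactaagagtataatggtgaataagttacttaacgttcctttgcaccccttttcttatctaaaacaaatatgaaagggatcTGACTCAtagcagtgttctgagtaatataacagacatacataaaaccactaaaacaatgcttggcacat
Far from DYRK2, chr12:67828195-67828394: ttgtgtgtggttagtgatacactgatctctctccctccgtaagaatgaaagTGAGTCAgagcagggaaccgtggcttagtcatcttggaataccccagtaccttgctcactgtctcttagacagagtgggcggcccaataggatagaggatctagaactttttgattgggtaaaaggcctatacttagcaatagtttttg
Near AKAP13, chr15:85344641-85344840: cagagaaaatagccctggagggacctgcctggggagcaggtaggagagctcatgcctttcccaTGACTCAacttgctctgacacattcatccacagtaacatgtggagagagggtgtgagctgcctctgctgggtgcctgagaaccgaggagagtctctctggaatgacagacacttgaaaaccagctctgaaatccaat

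The last 3 are the members with the highest -log10 q in a tandem repeat, with 1 repeat unit in capitals, and the one with the highest -log10 q that holds the motif of CTCF, the insulator protein, with the match in capitals. The 32 bases at the summit of the CTCF example occur in 9 places in the genome.
Tandem repeat of 12 bases near METRNL, chr17:83120447-83120646: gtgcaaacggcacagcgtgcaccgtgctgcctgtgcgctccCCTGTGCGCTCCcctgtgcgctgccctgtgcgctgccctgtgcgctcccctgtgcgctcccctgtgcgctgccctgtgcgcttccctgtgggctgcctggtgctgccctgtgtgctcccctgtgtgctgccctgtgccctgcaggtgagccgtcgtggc
Tandem repeat of 28 bases near DRD4, chr11:642665-642864: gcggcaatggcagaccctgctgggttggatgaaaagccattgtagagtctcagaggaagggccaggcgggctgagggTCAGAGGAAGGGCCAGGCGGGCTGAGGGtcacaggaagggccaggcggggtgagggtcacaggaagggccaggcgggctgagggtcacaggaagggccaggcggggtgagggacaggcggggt
CTCF motif near WASHC1, chr9:11345-11544: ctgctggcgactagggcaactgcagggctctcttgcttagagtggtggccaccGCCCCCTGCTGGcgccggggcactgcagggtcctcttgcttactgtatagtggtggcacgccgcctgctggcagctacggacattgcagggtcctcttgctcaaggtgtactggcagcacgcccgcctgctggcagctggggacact

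Most intergenic BRG1-alone peaks were small. The number of fragments at each summit was worked out from the deposited fold enrichment together with the p-value. Across the 11530 members it ranged from 3 to 183 with a median of 6, and the quartiles were 4 and 11. The caller expected a median of 0.476 fragments at these summits, and the fold enrichment, which is fragments against expectation with 1 added to both, had a median of 4.56. The median width was 191 bp, and the median -log10 q was 3.58. The ACTL6A-shared peaks were the 2305 BRG1 peaks between genes that shared a base with an ACTL6A peak and none with IgG 2. Unlike the members, this set kept peaks that also shared a base with NRF2. It had a median of 16 fragments and a width of 313 bp. BRG1-alone peaks inside protein-coding genes, 14604 in number, resembled the members in height, with a median of 7 fragments and a width of 189 bp. Of the members, 3572 (31.0%) had a -log10 q of at least 5, against 49.5% of all BRG1 peaks. At least 20 fragments were found at 789 members (6.84%), against 24% of all BRG1 peaks.

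Height and the absence of other peaks went together. Among BRG1 peaks between genes, the share without an ACTL6A, NRF2 or IgG 2 peak was 93.7% at 3 to 4 fragments, 84.2% at 8 to 11, 72.7% at 12 to 19 and 41.1% at 20 or more. These shares describe the rule itself. Whether ACTL6A protein was absent from the members was not tested, since a missing peak says only that none was called at the depth of that library. Of the 14322 BRG1 peaks between genes, 2468 shared a base with ACTL6A, 761 with NRF2 and 220 with IgG 2. The first IgG library (IgG 1), which the rule did not use, had only 11 peaks, and 0 members shared a base with them (which allows up to 0.0333%).

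At the edges of the rule, membership was decided by a few bases. The members closest to a transcript start lay 1004 bp from ENSG00000249406 with 8 fragments, 1005 bp from LINC02925 with 35 and 1005 bp from CASTOR3P with 9. Just outside were peaks at 1000 bp from C19orf12 with 11 fragments, 1000 bp from MEX3B with 15 and 996 bp from LINC01637 with 19. The smallest overlaps that excluded a peak were 1 and 2 bp, and the smallest gap that left a peak in was 1 bp, at a member with 25 fragments. The median gap from a member to the nearest ACTL6A peak was 22020.5 bp, and 598 members (5.19%) had such a peak within 1000 bp. For NRF2 the median gap was 81876.5 bp, and 178 members (1.54%) had a peak within 1000 bp.

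Of 22 motifs, that of AP-1 differed by the most percentage points between the summits of the intergenic BRG1-alone peaks and their surroundings. AP-1 factors bind TGANTCA, which was searched with the other motifs on both strands in the 200 bp around each summit. It occurred in 2067 of 11530 members (17.9%, 17.2% to 18.6%). In windows of the same size 1 kb to either side of the same summits it occurred in 5.79% (5.50% to 6.10%). The difference was 12.1 percentage points (Newcombe 95% interval 11.4 to 12.9). Of all BRG1 peaks, 13.2% held the motif in their summit window. Among the 2617 matches in members, 79.6% had C or G as the middle base, the form of the classical AP-1 site. In ACTL6A-shared peaks and BRG1-alone peaks inside genes that share was 81.1% and 78.1%. More than 1 match was found in 434 members (3.76%), against 8.03% of the ACTL6A-shared peaks, which were higher, and 2.99% of those inside genes. The median distance of the closest match from the summit was 38 bp, against 50 bp from the centre of the windows beside them. There were 27.3 matches per 1000 members in the 20 bp centred 50 bp to the right of the summit, against 6.68 in the 20 bp centred 490 bp to its left.

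The share of members with an AP-1 motif rose with the number of fragments. It was 7.91% (7.02% to 8.90%) at 3 to 4 fragments, 14.9% at 5 to 7, 21.8% at 8 to 11, 30.2% at 12 to 19 and 34.5% (31.2% to 37.9%) at 20 or more. The windows to the sides of the same peaks stayed between 5.32% and 6.08% in all 5 classes. At 3 to 4 fragments the summits exceeded their sides by only 1.84 points (0.752 to 2.98), and at 20 or more by 29.2 points (25.7 to 32.7). The first class held 3160 members and the last 789.

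The comparison of AP-1 shares between the members and the ACTL6A-shared peaks changed when it was made within classes of height. Over all peaks, the share was 22.95% in the ACTL6A-shared set, and the members minus that set gave -5.02 points (-6.91 to -3.21). Within the 5 classes of height, none of the differences over all peaks was negative. The members were higher by 4.59 points (0.536 to 7.75) at 5 to 7 fragments, by 5.65 points (1.10 to 9.56) at 8 to 11 and by 9.56 points (5.34 to 13.5) at 12 to 19. At 20 or more fragments the shares were 34.5% and 33.5%, a difference of 1.00 point (-3.45 to 5.47), and at 3 to 4 fragments it was 0.504 points (-4.67 to 3.78). The highest class was still unequal in height, with medians of 26 and 32 fragments. Against BRG1-alone peaks inside genes, the members held the motif more often over all peaks, by 2.84 points (1.94 to 3.75). By height, they did so by 3.15 points at 5 to 7 fragments, 4.63 points at 8 to 11 and 6.06 points (3.24 to 8.90) at 12 to 19, while at 20 or more the interval of -2.87 to 5.81 included 0. When peaks in repeated sequence or at tRNA and rRNA genes were left out, the difference from ACTL6A-shared peaks at 12 to 19 fragments was 8.71 points (3.71 to 13.3), and its intervals in the other 4 classes included 0, with negative values of -1.18 points at 3 to 4 fragments and -1.19 points (-6.42 to 4.06) at 20 or more.

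**Figure D1:**
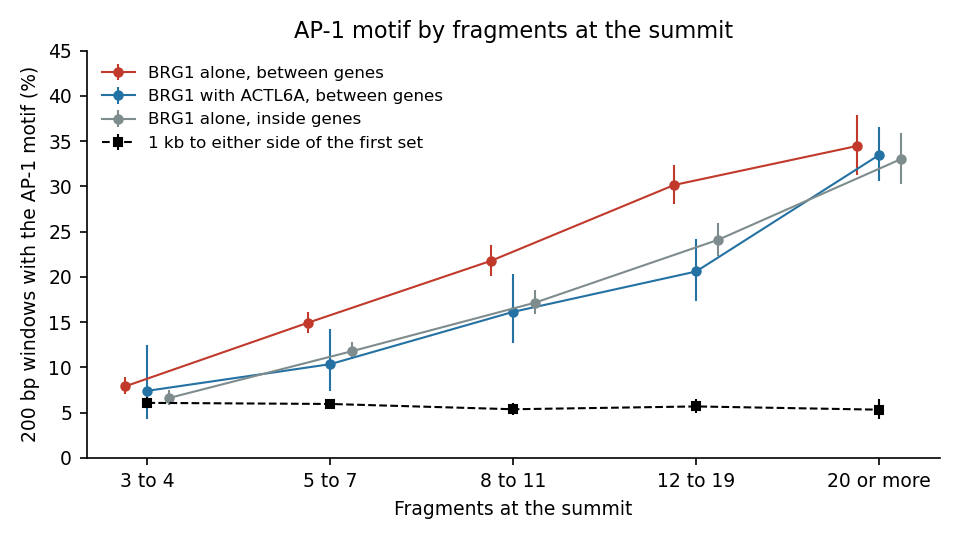
Share of 200 bp summit windows with the AP-1 motif (y axis, %) by fragments at the summit (x axis) for 3 sets of BRG1 peaks and for the windows 1 kb to either side of the intergenic BRG1-alone peaks; lines are Wilson 95% intervals. The intergenic BRG1-alone peaks rise from 7.91% to 34.5% while the windows beside them stay between 5.32% and 6.08%.

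Members far from genes held the AP-1 motif more often than those near them. Within 10 kb of a protein-coding transcript start, 15.5% of 2189 members had the motif, and beyond 100 kb 21.9% of 2589 did. The distant members were the weaker, with a median of 5 fragments against 9. Of members with 8 to 11 fragments, 15.7% (12.8% to 19.2%) near a start and 35.3% (30.7% to 40.1%) beyond 100 kb held it. At 20 or more fragments the shares were 26.5% (21.9% to 31.7%) and 47.4% (38.6% to 56.4%). The GC content of the windows moved in the other direction, from a median of 60.5% near starts to 49% beyond 100 kb among the members with 20 or more fragments, and its part in the difference was not tested.

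CTCF binds insulators and the anchors of chromatin loops. Its motif was found in 307 members (2.66%, 2.38% to 2.97%) and in 0.217% of the windows beside them. Among ACTL6A-shared peaks the share was 5.34% and over all BRG1 peaks 2.15%. The members minus the ACTL6A-shared peaks gave -2.67 points (-3.71 to -1.77). Among peaks with a -log10 q of at least 5 this difference was -0.670 points. Within classes of height it was -2.45 points (-6.39 to -0.659) at 3 to 4 fragments and -3.31 points (-6.70 to -0.756) at 8 to 11, while in the other 3 classes it was also negative but its interval included 0. At 20 or more fragments the shares were 4.06% and 5.04% (difference -2.94 to 1.04). Members with 3 to 4 fragments held it in 0.633% of windows.

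Motifs of other families differed by fewer points between summits and sides. The E-box CAGGTG was found in 27.4% of members and 21.8% of the windows beside them, with 24.9% in all BRG1 peaks, but at 20 or more fragments the interval of that difference, -4.94 to 2.17, included 0. The antioxidant response element core TGACNNNGC, which NRF2 and small MAF proteins bind and which can overlap an AP-1 match, was found in 11.8% of members, in 7.61% of the windows beside them and in 11.5% of all BRG1 peaks. The TEAD motif GGAATG, bound by the partners of YAP, was found in 13.0% against 10.5%, with 10.7% in all BRG1 peaks. SP motifs (GGGGCGGG), typical of CpG-rich promoters, were found in 2.65% against 1.27%, far below the 9.71% of all BRG1 peaks, and ETS motifs (CCGGAAGT) in 0.269% against 0.160%, with 1.13% in all BRG1 peaks. The position rule removed promoters from the members and also from the ACTL6A-shared peaks, which held SP in 4.82% and ETS in 0.998%. Among members, SP was found in 1.11% at 3 to 4 fragments and in 6.72% at 20 or more. The cause of these differences was not tested. Motifs of gut lineage factors went in both directions. KLF (GGGTGTG) was found in 8.19% of members against 5.65% beside them and FOX (TGTTTAC) in 2.59% against 2.22%, with 8.04% and 1.94% in all BRG1 peaks. HNF4 (CAAAGTCCA) was found in 0.286% against 0.317%, and the interval of that difference, -0.146 to 0.102, included 0. The motif of GATA factors, AGATAA, was found in 4.87% against 9.97%, CDX (TTTATGG) in 1.52% against 2.79% and GRHL (AACNNGTT) in 1.47% against 2.58%. In all BRG1 peaks the last 3 shares were 3.56%, 1.11% and 1.32%. The summit windows of members had a median GC content of 56.5%, against 58.5% in ACTL6A-shared peaks and 60.5% in all BRG1 peaks. The GC content of the windows beside them is not given here. The part of base composition in these shares was not tested.

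The members with the most fragments were not at AP-1 motifs but in ribosomal DNA. Ribosomal RNA is made from many gene copies, the 45S units by RNA polymerase I and the 5S genes by RNA polymerase III, which also transcribes tRNA genes. All 10 members with the most fragments lay on chromosome 21 between 8 and 9 Mb, where GRCh38 carries 45S units, and 9 of them were within 1 kb of an annotated rRNA gene. The highest, with its summit at 8213122 in RNA45SN2, had 183 fragments where the caller expected 62.4. Next were 164 fragments against 53.5 at 8208832, also in RNA45SN2, and 154 against 58.6 at 8396157 in RNA45SN3. The summits of the following members were at 8446158 in RNA28SN1 (141 fragments), 8216717 in RNA28SN2 (136), 8441249 in RNA28SN1 (131) and 8435395 in RNA45SN1 (128). The last of the 10 were at 8257997 (121), 8446799 (106) and 8219533 (105).

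Signal from other lists was high in the same stretch of chromosome 21. The 16 members there lay among 72 BRG1 peaks, 58 ACTL6A peaks, 60 NRF2 peaks and 30 IgG 2 peaks, and they were members only because no base was shared with the last 3 lists. Their median gap to the nearest IgG 2 peak was 2133.5 bp and the smallest was 284 bp, whereas over all members the median gap was 1.78 Mb, or 1776140 bp. The caller expected a median of 44.04 fragments at the 16, against 0.476 over all members, and the fold enrichment was between 1.89 and 5.51. The 32 bases at each of the 16 summits occurred in more than 1 place in the genome. The authors called peaks on uniquely mapped reads of 150 bp, and whether whole fragments could be assigned to 1 copy was not tested.

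The 5S rRNA genes on chromosome 1 gave a regular series of members. Of 17 genes from RNA5S1 to RNA5S17, 11 had a member within 1 kb. The 11 members had between 37 and 69 fragments against 12.4 to 21.8 expected, a fold enrichment of 2.06 to 3.24. At RNA5S2, RNA5S4, RNA5S7, RNA5S8, RNA5S10, RNA5S11, RNA5S13 and RNA5S14, the summit lay 65 to 72 bp downstream of the gene's first base, inside the gene. At RNA5S9, RNA5S16 and RNA5S17 it lay upstream, at -333, -320 and -821 bp from that base. Only the last of these summits, with 38 fragments, was in sequence with 1 copy in the genome. IgG 2 had a peak within 1 kb of 4 of the 17 genes and ACTL6A of 5.

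tRNA genes made up another class of RNA polymerase III templates among the members. Of the 11530 members, 74 lay within 1 kb of a tRNA gene, with 4 to 71 fragments and a median of 16. Among members with 20 or more fragments 31 of 789 did (3.93%, 2.78% to 5.52%). The share was 2.20% in ACTL6A-shared peaks of that height, a difference of 1.73 points (0.107 to 3.49), and 0.186% in BRG1-alone peaks inside genes. Of the 31, 14 lay in 1 array on chromosome 1, and without the peaks of that array 17 of 775 members (2.19%) and 2.21% of ACTL6A-shared peaks remained, a difference of -0.0123 points (-1.42 to 1.49). Over all heights the members had the lower share, 0.642% against 1.30%, a difference of -0.660 points (-1.23 to -0.239). The highest lay at TRE-CTC1-5, a glutamate tRNA gene on chromosome 1, with 71 fragments against 12.8 expected. At TRR-CCG1-3, an arginine tRNA gene on chromosome 16, 62 fragments stood against 5.95, the largest -log10 q of the class at 36.9, and at TRS-CGA1-1, a serine tRNA gene on chromosome 17, 50 stood against 4.40. Only 2 of the 74 held an AP-1 motif. In 11 of the 74 the summit lay inside the tRNA gene, and in 22 more it lay within 100 bp of it. Of 443 tRNA genes in the RefSeq table, 89 (20.1%) had a member within 1 kb and 222 (50.1%) had any BRG1 peak. An ACTL6A peak lay within 1 kb of 91 (20.5%), an NRF2 peak of 105 (23.7%) and an IgG 2 peak of 2 (0.451%). The 89 genes carried 18 different letter codes in their names, with glycine (11 genes), lysine, serine and alanine (8 each) the most frequent.

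**Figure D2:**
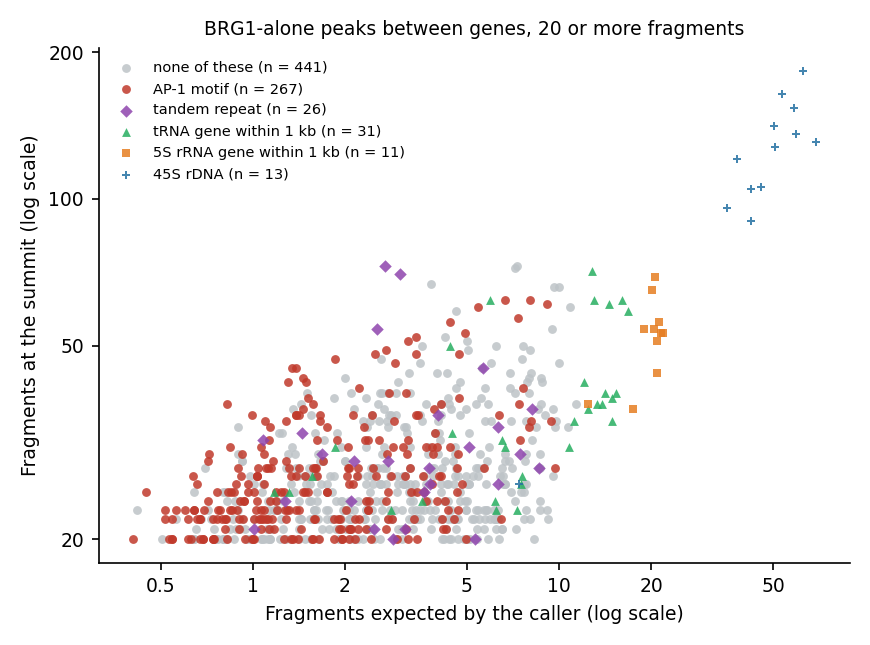
Fragments at the summit (y axis, log scale) against fragments expected by the caller (x axis, log scale) for the 789 intergenic BRG1-alone peaks with 20 or more fragments; each point is 1 peak, given to the first class it meets in the order 45S rDNA, 5S rRNA gene, tRNA gene, tandem repeat, AP-1 motif. The 45S rDNA points lie at the upper right, with a median of 128 fragments and 50.1 expected, and the AP-1 points at the left, with 25 and 1.57.

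By -log10 q, which weighs fragments against expectation, the order of the members was different. None of the 10 members with the highest -log10 q lay on the chromosome 21 rDNA, at 5S or at tRNA genes, and 6 of them held an AP-1 motif. Of the highest 500, 253 (50.6%) held it. Over all BRG1 peaks, of every height and with promoters included, the share was 13.2%, so the 2 sets are not matched. Among peaks with a -log10 q of at least 5, 34.5% of members held the motif. That was 2.84 points (0.734 to 4.96) above BRG1-alone peaks inside genes. The members named next were chosen after their values had been seen. The highest was 26298 bp from METRNL, with 73 fragments against 2.69 expected and a -log10 q of 71.9, and the second was 5496 bp from DRD4, the dopamine D4 receptor gene, with 70 against 3.03. Both lay in tandem repeats, with units of 12 and 28 bases. In the third, 26363 bp from ZNF778, 67 fragments were found against 3.82 expected. The fourth lay 179925 bp from OSR1, had 45 fragments against 1.34 and held 2 AP-1 matches in its window. The fifth, 8071 bp from KIF1A, had 54 against 2.55 and lay in a repeat of 33-base units. Further members with AP-1 lay 176826 bp from DYRK2 (38 fragments against 0.826), 35846 bp from AKAP13 (47 against 1.86) and 54044 bp from FUT8 (43 against 1.46). Members 342359 bp from SPATA31A3 and 56157 bp from CNTNAP3B, with 45 and 42 fragments, held 2 AP-1 matches each. Their summit sequences, and that of the AKAP13 member, had 3 copies in the genome. Those near METRNL and DRD4 had 2, so 5 of the 10 highest members had more than 1 copy.

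The 32 bases at the summit occurred more than once in the genome for 16.9% of members, 23.6% of ACTL6A-shared peaks and 10.0% of BRG1-alone peaks inside genes. At 20 or more fragments the first 2 shares were 18.9% and 21.7%, a difference of -2.84 points (-6.59 to 0.978). A tandem repeat, in which at least 90% of 100 consecutive bases equal the base 1 unit before them, was found at 277 members (2.40%), at 5.73% of ACTL6A-shared peaks and at 3.04% inside genes. At 20 or more fragments the shares lay between 3.30% and 3.36% in the 3 sets. Without members in repeated sequence or within 1 kb of tRNA and rRNA genes, 9434 members remained, and 19.7% of them held an AP-1 motif.

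Many members lay in noncoding genes that the rule did not exclude. The summit was inside an lncRNA gene for 2554 members (22.2%, 21.4% to 22.9%), against 22.4% of ACTL6A-shared peaks, a difference of -0.235 points (-2.14 to 1.59). The lncRNA genes with many members included LINC-PINT with 18, LINC01937 with 12 and MIR100HG, the host gene of a microRNA cluster, with 11, named after their counts had been seen. A pseudogene held the summit of 674 members (5.85%), close to the 6.03% of ACTL6A-shared peaks. Genes that RefSeq classes as small nuclear RNA include those of spliceosome RNAs and others such as SNAR-C1. They lay within 1 kb of 12 members (0.104%) but of 36 ACTL6A-shared peaks (1.56%), a difference of -1.46 points (-2.05 to -1.02). At 20 or more fragments the counts were 4 of 789 and 30 of 953.

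The members were unevenly spread over the chromosomes. Per Mb of known sequence that the position rule left, there were 7.26 members genome-wide, 21.1 on chromosome 17, 20.3 on chromosome 22 and 19.6 on chromosome 19, against 3.62 on chromosome 4 and 1.71 on chromosome X. The copy number of the chromosomes in this line was not analysed here, and its part in these densities was not tested. The last 5 Mb at the chromosome ends held 2137 members (18.5%) but 6.07% of the eligible sequence, which gives 22.2 members per Mb there and 6.30 elsewhere. The median distance from a member to a protein-coding start was 33961 bp. The member farthest from one, on chromosome 21 at 5012729, was 5508824 bp from TPTE and had 8 fragments.

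When members near each other were joined, with at most 12490 bp between neighbouring summits, 506 clusters of at least 3 members held 1841 of them (15.97%), and 7201 stood alone. Clustered members were higher, with a median of 9 fragments against 6, and richer in GC, with medians of 60.5% against 55.5%, but held the AP-1 motif less often, in 13.2% (11.7% to 14.8%) against 19.8% (18.9% to 20.7%) of those alone. The largest cluster was the tRNA gene array at chr1:161443161-161470004, where 14 members had 35 to 71 fragments with 18 tRNA genes between them. The second was the 5S array at chr1:228612387-228647972, with 12 members. The third, with 10 members of 9 to 47 fragments, lay on chromosome 11 6710 bp from BRSK2, and the fourth, with 10 of 6 to 18, on chromosome 12 30901 bp from FBRSL1. The fifth, level in number with one near RPL3 on chromosome 22, had 9 members of 9 to 45 fragments on chromosome 17, 7042 bp from SOCS3, which encodes an inhibitor of cytokine signalling through STAT3. In these last 3 clusters together only 1 member, near SOCS3, held an AP-1 motif.

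Of 19689 protein-coding genes, 59.3% had a member within 100 kb of a transcript start, so the presence of a member near a given gene is common. Counts for gene lists are read against that share and against 19.3 members per Mb of eligible sequence around all genes. A member can be counted for several neighbouring genes, and proximity does not show that it acts on them.

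In 3 lists the interval of the share lay above that of all genes, but these intervals treat genes as independent. Neighbouring genes of a list can share a member, as PGA3, PGA4 and PGA5 did, which makes the intervals too narrow. Of 16 AP-1 transcription factor genes, 14 had a member (87.5%, 63.98% to 96.5%), with 38.1 members per Mb. ATF3, a stress-induced member of the family, had 8, of which 5 held an AP-1 motif, and the highest of these had 28 fragments 15107 bp from a start. FOSL1, FOSL2 and MAFK had 6 each, the highest with 34, 18 and 21 fragments. Of 18 genes of epithelial adhesion and keratins, 15 had a member (83.3%, 60.8% to 94.2%), with 35.3 per Mb. The neighbouring KRT8 and KRT18, the keratin pair of simple epithelia, had 9 each, with up to 36 fragments 29225 bp from KRT8, and JUP, which encodes plakoglobin, had 6. Of 18 gastric mucosa differentiation genes, 17 had a member (94.4%, 74.2% to 99.0%), with 33.4 per Mb. The adjacent mucin genes MUC5AC and MUC6 had 9 and 7, and both counts include a member with 29 fragments, while ATP4B, a subunit of the gastric proton pump, had 6.

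In the other lists the interval held the share of all genes. Of 12 gastric cancer oncogenes, 7 had a member (58.3%, 31.95% to 80.7%), with 28.5 per Mb. CCND1, which encodes cyclin D1, had 12, the highest with 28 fragments 2814 bp from a start, and CCNE1 and VEGFA had 6 each. Of 23 SWI/SNF subunit genes, 14 had a member (60.9%, 40.8% to 77.8%), with 30.8 per Mb and with 11 at ARID1B, 9 at DPF2 and 8 at BRD9. Of 23 NRF2 target genes of glutathione synthesis and detoxification, 15 had a member (65.2%, 44.9% to 81.2%), with 21.5 per Mb. SRXN1, the sulfiredoxin gene, had 8, HMOX1, the haem oxygenase gene, had 4, and FTH1, FTL, GCLC, TALDO1 and TXNRD1 had 3 each. Among those of FTL was a member of 56 fragments 73480 bp from FTL, whose nearest protein-coding start was that of CGB1 at 1894 bp. Of 23 gastric and gut lineage transcription factor genes, 18 had a member (78.3%, 58.1% to 90.3%), yet with 15.995 per Mb, with 7 at ELF3 and 4 at BARX1 among them.

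Mesenchymal and YAP genes, and genes of other tissues, covered a wide range. Of 17 genes of the mesenchymal switch, 10 had a member (58.8%), with 15.4 per Mb. TGFBI had 6, of which 4 held an AP-1 motif, and SNAI1 had 5. Of 15 YAP and TEAD targets, 7 had a member (46.7%, 24.8% to 69.9%), with 9.55 per Mb, led by AMOTL2 with 4, TEAD1 with 3 and F3 with 2. Genes of tissues that the line does not come from were not free of members. Of 12 muscle genes 10 had one (83.3%), with 9 at NKX2-5, 5 at TNNT2 and 4 at DES, of 12 blood genes 8 did, with 4 each at CD3E and CD4, and of 12 nerve genes 5 did, with 4 at RBFOX3 and 3 at OLIG2. The densities around these 3 lists were 22.2, 25.7 and 9.22 members per Mb. With 12 to 23 genes in a list the intervals are wide.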

How the data were processed

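CUT&Tag libraries of SNU638 cells were used as the authors' peak lists, 1 per library (anti-BRG1, anti-ACTL6A, anti-NRF2, IgG 1 and IgG 2). The peak names in the IgG 1 list carry a BRG1 prefix, and that list was not used to choose members. Per the labels and the study's methods, the authors sequenced 150 bp paired-end reads, trimmed them with in-house scripts and fastp 0.23.0, mapped them to hg38 with BWA and called peaks on uniquely mapped reads with MACS2 at q below 0.05. The submitters' processing notes also list HOMER 4.11, FastQC and deepTools. Which control the caller was given is not given in the sources used here. The deposited lists hold a score, a fold enrichment, a -log10 p, a -log10 q and a summit for each peak. The score is the deposited -log10 q multiplied and truncated, so it was not used on its own.

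Whole fragments at the summit and the expected number were recovered from the deposited fold enrichment and -log10 p, with a tolerance of 0.001. This gave whole numbers for 99.9918% of BRG1 peaks, and 4 were not recovered. Peaks were placed against GENCODE release 44 and the GRCh38 sequence, and tRNA and rRNA genes were taken from RefSeq. A base was enough to count 2 peaks as shared. Motif shares were counted in 200 bp windows with Wilson intervals, and differences have Newcombe intervals, at 95%. Differences between groups were not tested, since each antibody had 1 library. The scripts were tested on simulated data (pysam 0.24.0 and pandas 2.3.3 under Python 3.11.15, with SciPy 1.17.1, matplotlib 3.10.9 and NumPy 2.4.6).

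The members and the lists were chosen with earlier results of these data known. Named were the 10 members with the most fragments, the 5 clusters with the most members, up to 3 genes per gene list (ties included) with the most members within 100 kb, the member farthest from a protein-coding start and those at the 1 kb limit. Members at tRNA and 5S genes, those ranked by -log10 q, tandem repeats, the CTCF example, the lncRNA genes, the class of 3 to 4 fragments, the distance classes and the tRNA share without 1 array were chosen after values had been seen. One gene that the rule names and 1 sequence are not reported here. Only 2 of the sequences with the most fragments are shown, since the next are in the same rDNA. The alternatives changed the peak threshold, height, distance to starts, overlap, IgG lists, motif window, joining distance and gene distance.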

Additional observations from a re-analysis of the deposited data

How the results depend on the processing

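Of 118 alternative values of 13 results, 79 moved by less than their counting interval (or, for counts, by less than 1.5 times), 37 moved further and 2 turned direction. With a -log10 q of at least 5 the members numbered 3572, the AP-1 share was 34.5%, its difference from ACTL6A-shared peaks turned to 6.81 points, 6297 genes had a member within 100 kb and 58 clusters remained. With at least 10 fragments the same values were 3399, 29.8%, 2.22 points (-0.455 to 4.84), 5965 and 146. Both settings leave only the higher peaks of each set. The AP-1 share was 10.9% in windows of 100 bp and 24.5% in windows of 400 bp, as the number of bases searched changed. Joining within 5 kb gave 122 clusters. Chosen after seeing the data, 1 setting left out peaks of every set in repeated sequence and at tRNA and rRNA genes. It gave an AP-1 share of 19.7% in members and 27.6% in ACTL6A-shared peaks, a difference of -7.87 points. The cause of the change was not tested. When the list of IgG 2 was not used to exclude peaks there were 11546 members. When peaks sharing a base with IgG 1 were excluded as well as those sharing one with IgG 2, there were 11530. The planned repeat share was not run, since the reference carries no repeat mask. No paired analysis was possible because only IgG had more than 1 library and no result comes from a fit. The members' median of 6 fragments at the summit limits the precision of each peak's height.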
